A study of Mus musculus with 10 samples.

Results

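Ptpmt1, Pgs1, Crls1 and Lclat1 encode enzymes of cardiolipin synthesis and remodelling, and their RNA was followed through induced deletion of the transcription factor gene Zfx in mouse leukaemia cells. The genes were chosen by name, and each was read from the probe set whose platform annotation gives it as the only symbol, or from the brightest such probe set where a gene has several. They are 4 of the 19938 genes with a probe set of their own. Each of the 4 had exactly 1 such probe set, and all 4 passed the filter on low signals.

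Cardiolipin is the characteristic phospholipid of the inner mitochondrial membrane, where it binds respiratory chain complexes and helps to shape cristae. Pgs1 makes phosphatidylglycerol phosphate from CDP-diacylglycerol, Ptpmt1 removes its phosphate to give phosphatidylglycerol, and Crls1 joins phosphatidylglycerol to another CDP-diacylglycerol to give cardiolipin. Lclat1, also called ALCAT1, reacylates lysocardiolipin in a remodelling step; in blood formation, Ptpmt1 is known to be needed for haematopoietic stem cells to differentiate.

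The cells were primary acute myeloid leukaemias driven by the MLL-AF9 fusion. All 5 independent lines carried the fusion and a tamoxifen-inducible Cre-ER transgene, also those that served as controls. Lines 10949, 10950 and 10986 had the conditional allele, Zfx fl/y, and lines 10977 and 10980 the wild-type allele, Zfx wt/y. Leukaemia cells recovered from moribund mice were cultured for 72 h in medium holding 20 ng/mL SCF and 10 ng/mL of the interleukins IL-3 and IL-6, together with either 10 nM 4-hydroxytamoxifen (4-OHT), which activates Cre, or the ethanol vehicle. c-Kit+ cells, c-Kit being the receptor for SCF and a marker of immature cells, were then sorted by flow cytometry, and 200 ng of total RNA was labelled for a 1-colour array. This gave 3 arrays of fl vehicle, 3 of fl 4-OHT, 2 of wt vehicle and 2 of wt 4-OHT, 1 for each line and treatment. Each line is 1 leukaemia, so the results rest on 3 fl and 2 wt leukaemias. The 4-OHT tests below measure the spread of the change between lines, pooled over fl and wt. The genotype tests measure the spread of arrays around their group means, with line as a random block. The sources used here do not give the ages of the mice, the promoter that drives Cre-ER or the share of cells that lost Zfx.

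The arrays resembled one another in overall signal, with medians of 144.7 to 158.2. One array, that of line 10986 with vehicle, differed from all others: its correlation with them averaged 0.961, where the other 9 averaged 0.979 to 0.985, and it had a score of 49.4 on the first principal component, against -20.4 to 23.0. The SD of the change over all genes was accordingly 0.497 in line 10986 and 0.174 to 0.263 in the other lines. The log2 level of Zfx itself in the fl lines was 10.09, 9.63 and 9.24 with vehicle and 10.07, 9.98 and 10.02 with 4-OHT (estimated change 0.37, SE 0.16, limma adjusted p = 0.407), and the sources used here do not say whether its probes lie in the deleted exons, so the labels were not checked by it. All 10 listed markers of c-Kit+ myeloid leukaemia cells, Kit and Mpo among them, were above the filter, as were 15662 of all 19938 genes. So were 11 of 11 measured monocyte and macrophage markers and 5 of 6 stromal and endothelial ones. Passing the filter thus does not single out the sorted cells.

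Zfx is a zinc finger activator known to bind promoters at AGGCCT, and the promoter windows of the 4 genes were searched for these letters, which read the same on both strands. RefSeq gives 5 windows for them on build GRCm38.p6, each from 250 bases before to 50 bases after a transcription start, with 2 for Crls1. AGGCCT occurs in 3372 of all 32851 such windows, or 10.3%, and in 1 of these 5. The 250 bases before the start are printed for Ptpmt1, the gene with the largest change below, and for the 1 window with a match. That of Ptpmt1 is at chr2:90918051-90918300 on the minus strand, and that of Crls1 at chr2:132846416-132846665 on the plus strand. Both run 5′ to 3′ along the gene, with any AGGCCT in capitals.
Ptpmt1: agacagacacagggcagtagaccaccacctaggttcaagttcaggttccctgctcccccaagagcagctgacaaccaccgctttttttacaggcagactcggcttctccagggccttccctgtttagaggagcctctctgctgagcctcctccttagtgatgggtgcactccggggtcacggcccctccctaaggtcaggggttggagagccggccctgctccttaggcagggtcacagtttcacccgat
Crls1: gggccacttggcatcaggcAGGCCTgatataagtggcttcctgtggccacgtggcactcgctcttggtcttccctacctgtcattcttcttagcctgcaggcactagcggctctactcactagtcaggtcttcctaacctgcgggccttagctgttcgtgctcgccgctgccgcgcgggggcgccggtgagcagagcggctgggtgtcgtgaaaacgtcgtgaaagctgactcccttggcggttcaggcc
The match in the Crls1 window spans bases 20 to 25 of it. The Ptpmt1 window, 62% G and C over its 300 bases, does not hold these letters, which says nothing of sites elsewhere or of other motifs.

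Ptpmt1, the phosphatase of the pathway, had less RNA after 4-OHT in all 3 fl lines and ended at nearly the same level in each. All levels are log2 of the deposited signal. Vehicle arrays of lines 10949, 10950 and 10986 had Ptpmt1 at 10.02, 9.45 and 8.96. With 4-OHT it was at 8.54, 8.47 and 8.52 in the same order. The fl vehicle arrays thus spread over 1.05 and the fl 4-OHT arrays over 0.07, and the 2 sets did not overlap, as for 1138 genes that were lower in this way (7.27%). In the wt lines 10977 and 10980 it was at 9.55 and 9.99 with vehicle and at 9.48 and 9.76 with 4-OHT. Each fl 4-OHT array was below all the other 7 arrays, a pattern that 604 of the 15662 genes tested shared (3.86%). On the fl 4-OHT arrays, 67.1 to 67.7% of all probe sets were dimmer than that of Ptpmt1, and on the others 74.6 to 83.6%. Its level thus stayed well above the filter of 6.23 in every group. The arrays read bulk RNA, in which fewer cells of a type and less RNA per cell cannot be told apart.

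**Figure D1:**
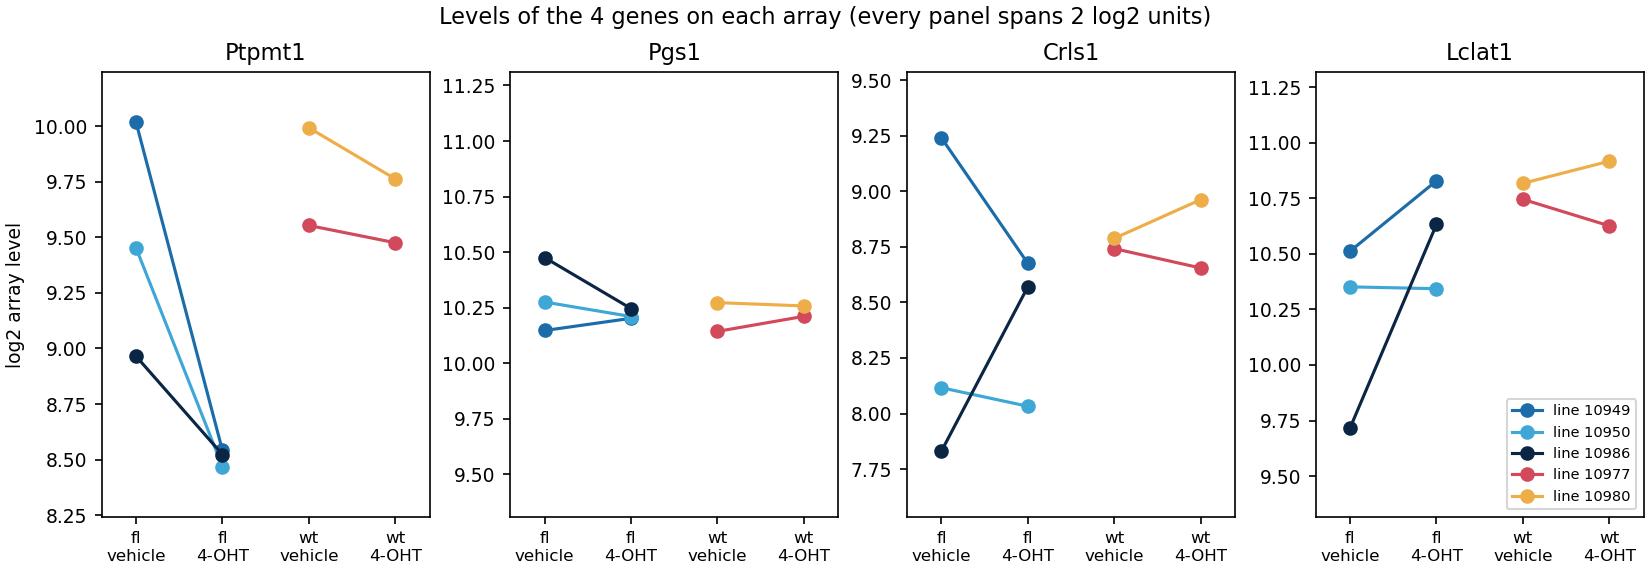
Log2 level of Ptpmt1, Pgs1, Crls1 and Lclat1 on each of the 10 arrays, by group (points joined by line where they come from the same leukaemia). The fl 4-OHT arrays of Ptpmt1 lie between 8.47 and 8.54, below the other 7, while for each other gene the fl 4-OHT arrays overlap with the fl vehicle arrays.

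Line by line, the change of Ptpmt1 followed its starting level. The change was -1.48 in line 10949, which started highest and kept 36.0% of its vehicle signal. It was -0.98 in line 10950 (50.6% kept) and -0.44 in line 10986, which started lowest (73.6% kept). Since the end points were close together, the lines differed in their change almost wholly through their vehicle arrays. The lowest start, that of line 10986, was read on the array that differed from all others. Ranked from the most negative change among the 15662 genes of its own line, Ptpmt1 came 10th (line 10949), 62nd (line 10950) and 1204th (line 10986). The changes in the wt lines were -0.08 and -0.23. A lower level with 4-OHT in all 3 fl lines was seen for 2274 genes (14.5%), and in all 5 lines, as for Ptpmt1, for 370 (2.36%). A range over the fl 4-OHT arrays at or below that of Ptpmt1 was seen for 6.71% of genes, a range over the fl vehicle arrays at or above its own for 9.1%, and a vehicle to 4-OHT ratio of these ranges at or above its own for 105 genes (0.67%).

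Over the 3 fl lines, the estimated change of Ptpmt1 was -0.97 (SE 0.19, n = 3 pairs, 95% interval -1.41 to -0.52), a 1.95-fold lower signal. Its adjusted p of 0.114 in limma, with Benjamini-Hochberg adjustment over all genes tested, missed the threshold of 0.05; its unadjusted limma p was 0.00149, where 12.3% of genes were under 0.05. None of the 4 genes passed in this comparison, in which 24 of 15662 genes did (0.153%), 16 of them lower (0.102%) and 8 higher (0.0511%). By size of change Ptpmt1 was the 32nd lowest of all genes, and by p it ranked 204th. The call depended on line 10986, whose vehicle array differs from the others: without that line the change was -1.23 (SE 0.13) with a limma adjusted p of 0.00602, where 440 genes passed (2.81%), 296 of them as lower (1.89%). It also passed when arrays were weighted by their fit (-1.40, limma adjusted p = 5.52e-05), but so did 3907 genes (24.9%), Crls1 (-0.48, adjusted p = 0.00957) and Lclat1 (0.30, adjusted p = 0.0195) among them. That setting gave line 10949 a weight of 5.71, line 10950 0.655 and line 10986 0.162. Over all 17 alternatives the change ran from -1.40 to -0.71 and the adjusted p from 5.52e-05 to 0.373.

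**Figure D2:**
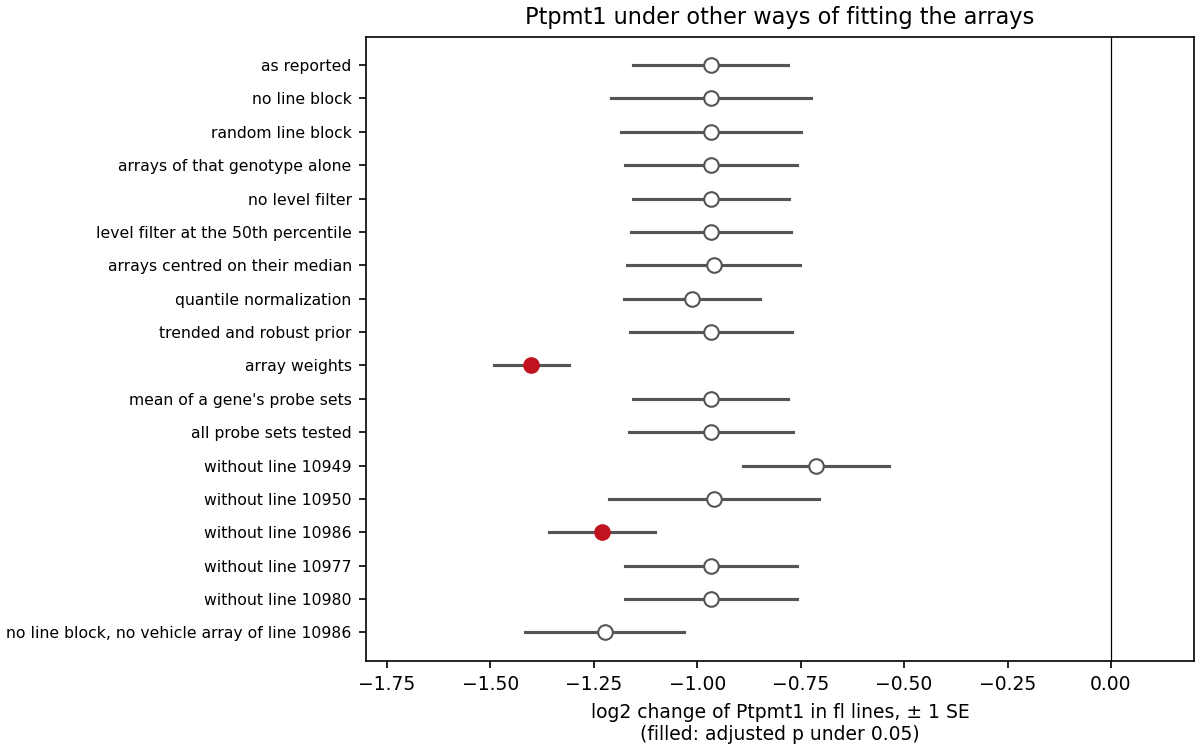
Estimated log2 change of Ptpmt1 with 4-OHT in the fl lines, with its SE, in the reported fit and each alternative. Filled points have a limma adjusted p under 0.05; the change was below 0 in each, from -1.40 to -0.71.

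In the wt lines, which show what 4-OHT and Cre activation do without a conditional allele, the estimate for Ptpmt1 was -0.15 (SE 0.23, n = 2 pairs, 95% interval -0.70 to 0.39, limma adjusted p = 1). No gene passed in that comparison (0%), where 23 of 15662 had an unadjusted limma p under 0.05. The change in the fl lines was lower than that in the wt lines by 0.81 on the log2 scale (-0.81, SE 0.30, 95% interval -1.52 to -0.11), with an adjusted p of 0.788 in limma. This test of the difference also called no gene (0%), with 912 at an unadjusted limma p under 0.05 (5.82%), Ptpmt1 among them. The change was thus larger in each of the 3 fl lines than in either wt line, while the difference missed the threshold over all genes.

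The genotypes were also set side by side within each treatment, which shares arrays with the comparisons above. With vehicle, Ptpmt1 in fl lines was -0.30 from wt lines (SE 0.27, limma adjusted p = 0.591), a comparison in which 3 genes passed (0.0192%). Group means were 9.48 ± 0.53 (SD, n = 3) in fl vehicle and 9.77 ± 0.31 (SD, n = 2) in wt vehicle, so these neighbours overlap. With 4-OHT the fl lines were at 8.51 ± 0.04 (SD, n = 3) and the wt lines at 9.62 ± 0.20 (SD, n = 2). That difference was -1.11 (SE 0.27, 95% interval -1.72 to -0.50) with a limma adjusted p of 0.12, where 101 genes passed (0.645%), 72 of them as lower (0.46%). Fitted on the 5 arrays with 4-OHT alone, the same difference had a limma adjusted p of 0.0325, where 41 genes passed (0.262%), and over the alternatives the p ran from 0.00558 to 0.974, the highest without wt line 10980. In order of mean level the groups were wt vehicle, wt 4-OHT, fl vehicle and fl 4-OHT, and only the step to fl 4-OHT separated all arrays.

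**Figure D3:**
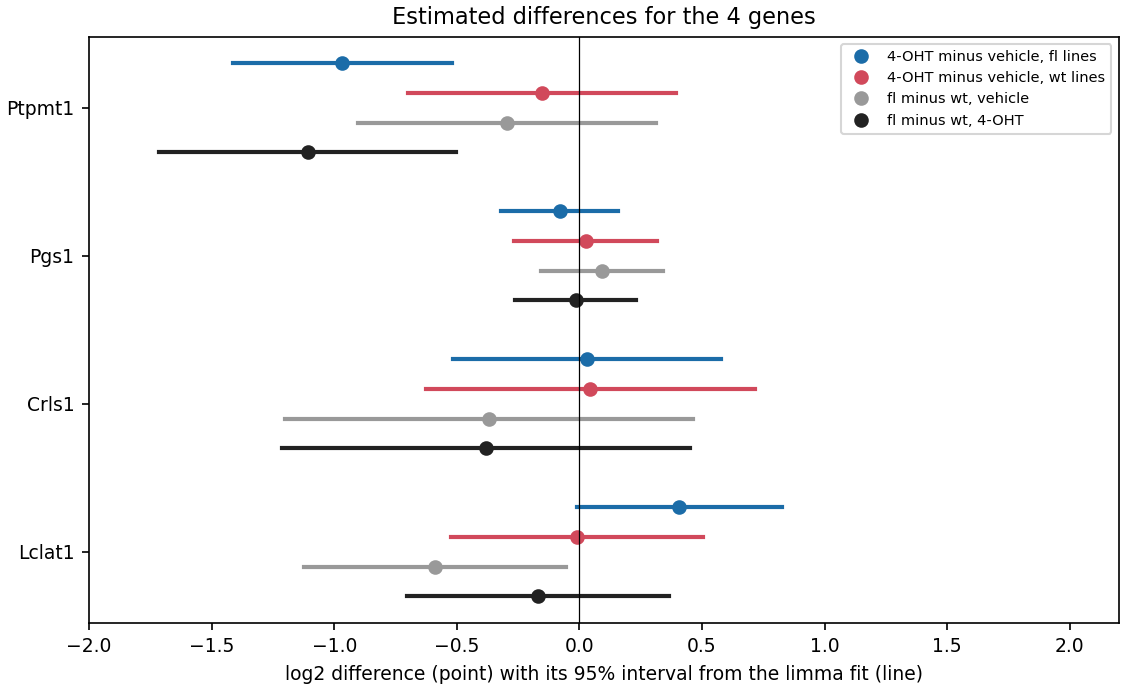
Estimated log2 differences of the 4 genes in 4 comparisons (points) with 95% intervals from limma (lines), colours giving the comparison. The intervals of Ptpmt1 lie below 0 for 4-OHT minus vehicle in fl lines (-1.41 to -0.52) and for fl minus wt with 4-OHT (-1.72 to -0.50), and those of Pgs1 and Crls1 include 0 in each comparison.

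Pgs1, the enzyme just before Ptpmt1, hardly varied. With vehicle it was at 10.15, 10.28 and 10.48 in lines 10949, 10950 and 10986, and with 4-OHT at 10.20, 10.21 and 10.25. In the wt lines it was at 10.14 and 10.27 with vehicle and 10.21 and 10.26 with 4-OHT. All groups overlapped, and the highest of the 10 arrays was the vehicle array of line 10986, as for 27.1% of genes. The change in fl lines was -0.08 (SE 0.10, 95% interval -0.32 to 0.16, limma adjusted p = 0.898), and -0.01 (SE 0.09) without line 10986. A change as large as that of Ptpmt1 therefore lies outside its interval. The fl and wt lines differed by 0.09 (SE 0.11) with vehicle and by -0.02 (SE 0.11, limma adjusted p = 0.996) with 4-OHT. The order of its group means was fl vehicle at 10.30 ± 0.17, wt 4-OHT at 10.23 ± 0.03, fl 4-OHT at 10.22 ± 0.02 and wt vehicle at 10.21 ± 0.09 (SD, n = 3 for fl and 2 for wt), and no neighbours differed beyond their spread.

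Crls1, the cardiolipin synthase after Ptpmt1, had changes of opposite sign in the fl lines. With vehicle it was at 9.24, 8.12 and 7.83 in lines 10949, 10950 and 10986, and with 4-OHT at 8.68, 8.03 and 8.57. The changes were -0.56, -0.08 and 0.74, and the wt lines gave -0.09 and 0.17. The vehicle array of line 10986 was the lowest of the 10, as for 26.1% of genes, and the change of that line rests on it. The estimate in fl lines was 0.03 (SE 0.23, 95% interval -0.52 to 0.58, limma adjusted p = 0.999), and it turned to -0.32 (SE 0.13, adjusted p = 0.252) without line 10986. In the wt lines Crls1 was at 8.74 and 8.79 with vehicle and 8.66 and 8.96 with 4-OHT. The group means ran from 8.81 ± 0.22 in wt 4-OHT and 8.76 ± 0.03 in wt vehicle (SD, n = 2) to 8.43 ± 0.34 in fl 4-OHT and 8.40 ± 0.74 in fl vehicle (SD, n = 3), with no neighbours apart by more than their spread. The fl minus wt difference was -0.37 (SE 0.37, adjusted p = 0.611) with vehicle and -0.38 (SE 0.37, adjusted p = 0.919) with 4-OHT in limma.

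Lclat1, the lysocardiolipin acyltransferase, was higher with 4-OHT in 2 of 3 fl lines. With vehicle it was at 10.51, 10.35 and 9.72 in lines 10949, 10950 and 10986, and with 4-OHT at 10.83, 10.34 and 10.63. Its changes were 0.32, -0.01 and 0.91, the largest again in the line whose vehicle array was the lowest of the 10. The estimate was 0.41 (SE 0.18, 95% interval -0.01 to 0.83, limma adjusted p = 0.42), and 0.15 (SE 0.11, adjusted p = 0.532) without line 10986. The wt lines, at 10.75 and 10.82 with vehicle and 10.63 and 10.92 with 4-OHT, had changes of -0.12 and 0.10. With vehicle the fl mean of 10.19 ± 0.42 (SD, n = 3) was -0.59 (SE 0.24) from the wt mean of 10.78 ± 0.05 (SD, n = 2), with an adjusted p of 0.499 in limma. Its unadjusted limma p was 0.0348, in a comparison with 9.83% of genes under 0.05. Without line 10986 that difference was -0.35 (SE 0.18, adjusted p = 0.995). The means of wt 4-OHT, 10.77 ± 0.21 (SD, n = 2), and fl 4-OHT, 10.60 ± 0.24 (SD, n = 3), lay between and overlapped with their neighbours.

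**Figure D4:**
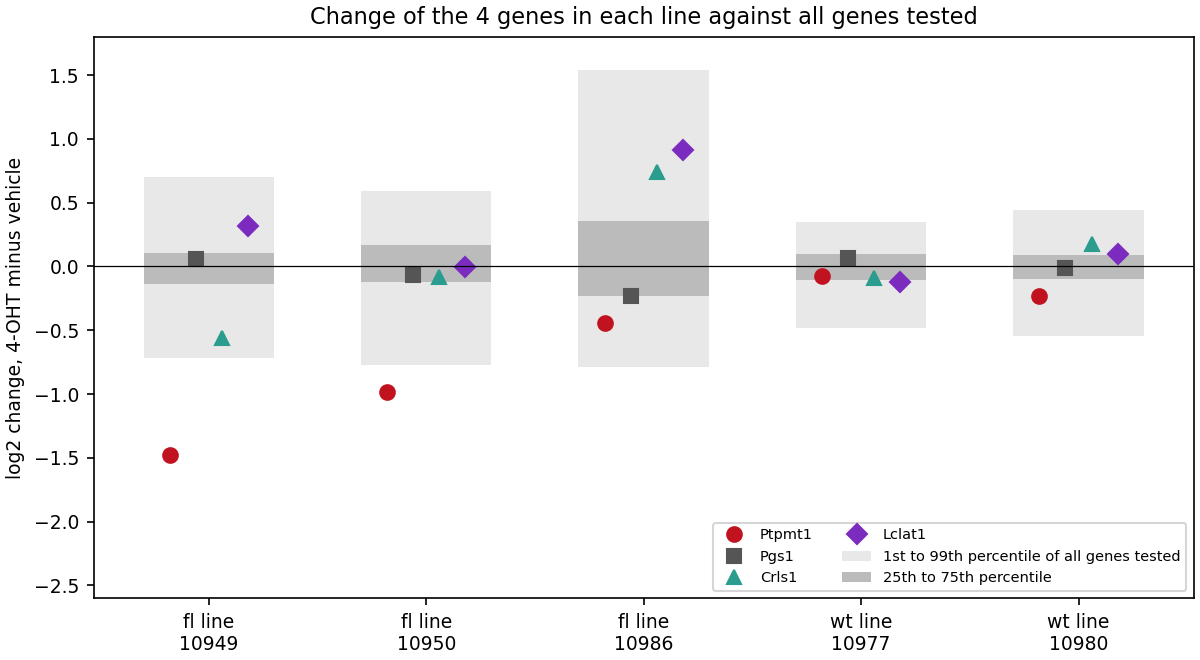
Log2 change of each of the 4 genes with 4-OHT in each of the 5 lines, over bars from the 25th to the 75th (dark) and the 1st to the 99th percentile (light) of all genes tested in that line. Ptpmt1 is below the light bar in lines 10949 and 10950 (-1.48 and -0.98) and inside it in line 10986 (-0.44), whereas Crls1 runs from -0.56 in line 10949 to 0.74 in line 10986.

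The 4 genes did not share a pattern over the arrays. Across the 10 arrays, which come in pairs from 5 lines, the level of Ptpmt1 correlated with that of Crls1 at r = 0.59, of Lclat1 at 0.28 and of Pgs1 at -0.174, given as descriptions. Crls1 and Lclat1 had the closest relation, at r = 0.765, and 0.619 without the vehicle array of line 10986. That of Pgs1 with Lclat1 was -0.706 with this array and 0.0553 without it.

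The genes most like Ptpmt1 were sought among the other 15661 genes tested by Pearson correlation over the 10 arrays. They were Prdx2 (r = 0.987), a peroxiredoxin that removes hydrogen peroxide, Tmem106c (0.973), Stradb (0.972), a pseudokinase that partners LKB1, Rcn2 (0.97), a calcium-binding protein of the secretory pathway, and Gkap1 (0.967). Each of these 5 had its fl 4-OHT arrays below all the other 7, as 3.86% of all genes did, which follows largely from choosing them by their likeness to Ptpmt1. The changes of Prdx2 had the same order over the fl lines as those of Ptpmt1, at -1.06 in line 10949, -0.83 in line 10950 and -0.37 in line 10986. Rcn2 had an estimate of -0.85 in the fl lines (SE 0.13, limma adjusted p = 0.0823). It was also lower with 4-OHT in wt lines 10977 and 10980, by -0.24 and -0.37 (estimate -0.30, SE 0.15). The closest to Crls1 were Nudt16 (0.991) and 3110040N11Rik (0.986), and to Lclat1 Traf6 (0.989) and Polr3b (0.987). For Pgs1 they were 2 olfactory receptor genes, Olfr643 (0.958) and Olfr1006 (0.957), whose r was 0.82 and 0.874 without the vehicle array of line 10986.

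The genes next to Ptpmt1 on the chromosome had estimates near or above 0. Of the 3 RefSeq genes on each side, Ndufs3, Kbtbd4 and Celf1 were measured. In limma Ndufs3, a subunit of respiratory complex I, had an estimate of 0.32 in fl lines (SE 0.14, adjusted p = 0.451). That of Kbtbd4 was 0.35 (SE 0.15, adjusted p = 0.42) and that of Celf1, an RNA-binding protein, -0.12 (SE 0.12, adjusted p = 0.842). In lines 10949, 10950 and 10986 the changes were 0.15, 0.07 and 0.73 for Ndufs3 and 0.25, 0.025 and 0.77 for Kbtbd4. Both genes were lowest on the vehicle array of line 10986.

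The wider pathway was described from lists of genes, by their counts in the fl comparison and their median beside the median of all genes, which was 0. In that comparison 24 of 15662 genes passed (0.153%), so a count of 0 in a short list says little. The list of genes that supply the pathway, acyltransferases and CDP-diacylglycerol synthases among them, had 0 of 12 genes passing and a median of 0.10. The 2 with the largest change were Agpat4, an acyltransferase (0.25, SE 0.09, limma adjusted p = 0.332), and Cds2, a CDP-diacylglycerol synthase (0.19, SE 0.13, adjusted p = 0.639). Other glycerophospholipid synthesis had 0 of 12 passing and a median of 0.10. In that list Pcyt1a, which makes CDP-choline, had the largest change (0.67, SE 0.12, limma adjusted p = 0.107). Its changes were 0.62, 0.44 and 0.95 in the fl lines against -0.04 and -0.21 in wt. Pcyt2, the counterpart of Pcyt1a for CDP-ethanolamine, was at -0.47 (SE 0.16, limma adjusted p = 0.289). With vehicle, fl minus wt was -0.97 (SE 0.14, limma adjusted p = 0.124) for Pcyt1a and 0.71 (SE 0.20, limma adjusted p = 0.366) for Pcyt2. With 4-OHT it was -0.17 and 0.04, so the genotypes were closer there.

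Cardiolipin remodelling and turnover had 0 of 9 genes passing, where 0.153% of all genes did, and a median of -0.12. Of these 9, 3 had an unadjusted limma p under 0.05 (Nme4 and Plscr3 lower, Hadha higher), where 12.3% of all genes did. Nme4, a mitochondrial nucleoside diphosphate kinase that binds cardiolipin and takes part in its transfer to the outer membrane, had the largest change of the list. Its levels were 9.76, 9.39 and 8.89 with vehicle and 8.85, 8.82 and 8.59 with 4-OHT in lines 10949, 10950 and 10986. In the wt lines they were 9.26 and 9.95 with vehicle and 9.12 and 9.92 with 4-OHT. Every fl 4-OHT array was below all the other 7, as for Ptpmt1 and 3.86% of all genes. For Nme4 this gap was narrow, from 8.85 in line 10949 with 4-OHT to 8.89 on the vehicle array of line 10986. As for Ptpmt1, the change was largest in line 10949 (-0.92, -0.57 and -0.29). The estimate was -0.59 (SE 0.13, 95% interval -0.91 to -0.27, limma adjusted p = 0.143). Hadhb, a subunit of the mitochondrial trifunctional protein, was at 0.50 (SE 0.27, adjusted p = 0.542), with changes of -0.14, 0.25 and 1.40. The next genes are outside the naming rule and were chosen after their values were seen. Hadha, the other subunit of the trifunctional protein, had changes of 0.26, 0.22 and 0.55 in the fl lines (estimate 0.35, SE 0.11, limma adjusted p = 0.247). Plscr3, a scramblase that moves cardiolipin, had changes of -0.50, -0.30 and -0.47 in the fl lines (limma adjusted p = 0.192), and Taz, tafazzin, of -0.52, 0.12 and -0.12 (adjusted p = 0.715).

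No gene of the mitochondrial structure and content lists passed, where 0.153% of all genes did, and their higher values came from line 10986. The MICOS, cristae and fusion list had 0 of 14 passing and a median of 0.15, led by Yme1l1, an inner membrane protease (0.54), and Apool, a cardiolipin-binding MICOS subunit (0.52). The mitochondrial content list had 0 of 22 passing and a median of 0.14, led by Tomm22, an import receptor (0.34), and Vdac2, a channel of the outer membrane (0.33). Lines 10949, 10950 and 10986 had median changes of -0.05, 0.00 and 0.40 in the content list, and 17 of its 22 genes were lowest on the vehicle array of line 10986. For the MICOS list this was so for 11 of 14, with a median change of 0.61 in that line. In line 10949, where the change of Ptpmt1 was largest, the median change of the MICOS list was -0.07.

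Other phosphatases of mitochondria were set beside Ptpmt1. Of the 6 tested in that list 0 passed, where 0.153% of all genes did. Their median was 0.02, from Dusp18, a dual-specificity phosphatase, at -0.17 to Ppm1k, which acts on the branched-chain ketoacid dehydrogenase, at 0.07.

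**Figure D5:**
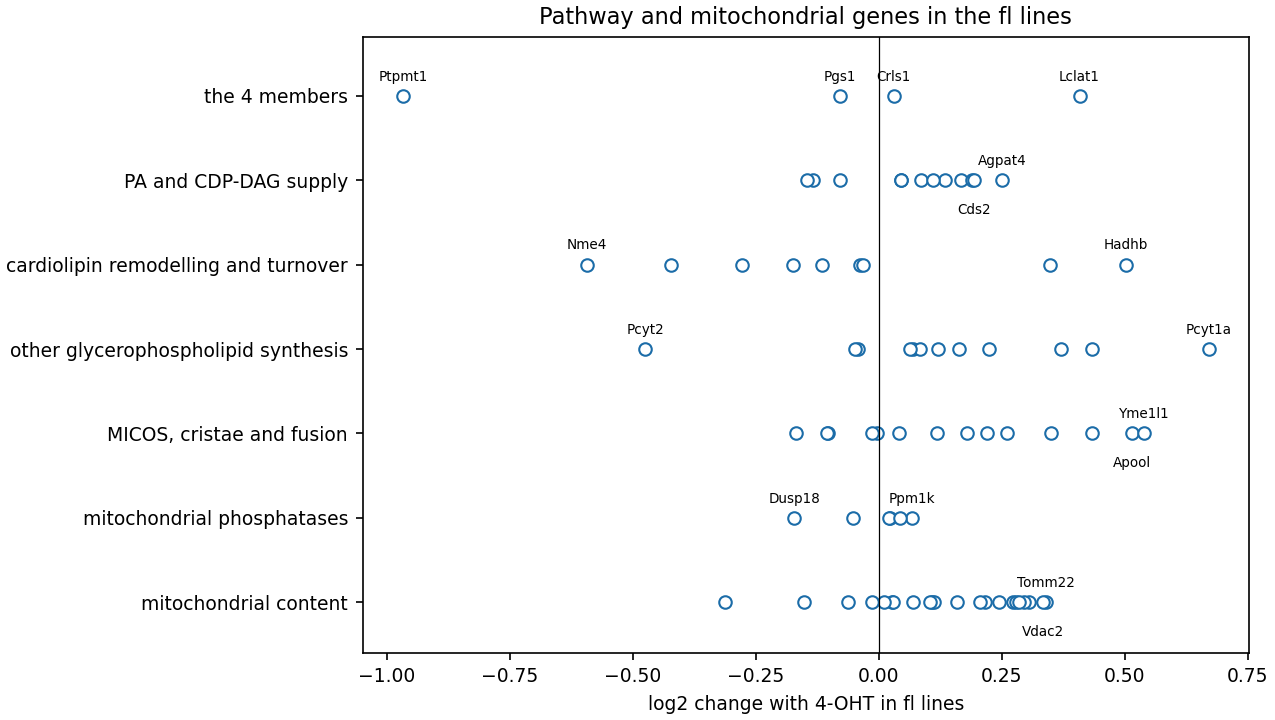
Log2 change with 4-OHT in the fl lines for each tested gene of the pathway and mitochondrial lists, 1 row per list, with the genes named by rule labelled. Ptpmt1 at -0.97 has the lowest value shown, and no gene shown has a limma adjusted p under 0.05.

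Idh2, the mitochondrial isocitrate dehydrogenase recalled from the study's publication together with Ptpmt1, had changes of -0.84, -0.81 and -1.17 in the fl lines (estimate -0.94, SE 0.14, limma adjusted p = 0.0836). Its change was largest in line 10986, where that of Ptpmt1 was smallest. Since both genes were recalled from that work on these samples, their direction here is not independent evidence.

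A few markers of maturing myeloid cells rose with 4-OHT in the fl lines, where Ptpmt1 was lower, while most of the listed markers did not pass. The monocyte and macrophage list, with 11 of its 13 genes measured and all 11 above the filter, had a summed signal of 7176 to 11260 in fl vehicle, 10430 to 18290 in fl 4-OHT, 11400 to 12550 in wt vehicle and 8780 to 15190 in wt 4-OHT, and 2 of 11 genes, Vcan and Ctss, rose in the fl lines, where 0.0511% of all genes did. Its mean change was 0.82, 0.57 and 1.19 in fl lines 10949, 10950 and 10986, while wt lines 10977 and 10980 gave 0.31 and -0.41. The late neutrophil list, with 10 of 10 genes measured and 9 above the filter, had a summed signal of 5515 to 9506 in fl vehicle, 7552 to 14990 in fl 4-OHT, 9469 to 20120 in wt vehicle and 5604 to 23840 in wt 4-OHT, and 1 of 9 genes, Mmp8, rose in the fl lines. The summed signals of fl vehicle and fl 4-OHT overlapped in both lists. The list of c-Kit+ leukaemia cell markers had 0 of 10 genes passing, where 0.153% of all genes did, with mean changes of 0.25, 0.17 and 0.46 in the fl lines. It had a summed signal of 17180 to 21840 in fl vehicle, 21860 to 24930 in fl 4-OHT, 24180 to 26830 in wt vehicle and 24640 to 26370 in wt 4-OHT. Its mean change was thus above 0 in all 3 fl lines. The list shares Csf1r with the monocyte list, so it does not stand for immature cells alone. The change of Ptpmt1 was smallest in line 10986, where that of the monocyte list was largest. Both of these changes use the vehicle array that differed from all others. In wt line 10977 a mean change of 0.31 in that list came with -0.08 in Ptpmt1. The part of maturing cells in the result was not tested. The lymphoid genes Cd79a, Ms4a1 and Cd3g were below the filter of 6.23, while Cd3e (mean level 7.03) and Cd8a (6.73) were above it.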

How the data were processed

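RNA was measured on 10 biotin-labelled 1-colour arrays. The authors deposited 1 intensity for each probe set on each array, computed by RMA as given per the submitters' processing notes; the sources used here do not name its software or version. RMA is meant to bring all arrays to one distribution, which can hide a global shift. The deposited values still differed in spread. Their log2 interquartile range was 2.67 on the vehicle array of line 10986 and 2.8 to 3.05 on the others. The deposited intensity values are linear, and log2 was taken here. Arrays have no read depth, and their number limits the precision.

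Of 35556 probe sets, 21789 carry 1 gene symbol in the platform annotation, 1621 several, and 12146 are not listed. Each gene was read from its brightest probe set with 1 symbol (19938 genes), and tests covered the 15662 whose mean log2 level reached 6.23, the 25th percentile over probe sets. limma 3.58.1 in R 4.3.3 was fitted on all 10 arrays, with the line as a block and a 4-OHT term for each genotype, giving 3 residual and 6.694 total degrees of freedom. Genotypes were compared on the means of the 4 groups, with line as random block by duplicateCorrelation (0.165, statmod 1.5.0). Tests were two-sided, with Benjamini-Hochberg adjustment over all genes tested, in 5 comparisons. The code was tested on simulated data.

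The pairing comes from the series design, in which each line was cultured both ways; the deviations of a line's 2 arrays from their group means correlated at 0.78 (10949), 0.22 (10950) and -0.064 (10986), and at 0.43 for wt, where 2 lines give 1 value. Named were the 4 genes, in each list reported here, where no gene passed in the fl lines, the 2 with the largest change, the 5 genes most correlated with Ptpmt1 and the 2 with each other gene, its chromosome neighbours, Zfx, Idh2 and Kit. Kit had an estimate of 0.20 in the fl lines (SE 0.12, limma adjusted p = 0.574). The genes and lists were chosen with earlier results of these data known. Of the marker lists, 2 of 6 erythroid, 5 of 6 lymphoid and 6 of 6 stromal and endothelial genes were measured, and no tested gene of these passed in the fl lines. The RefSeq promoter windows are of build GRCm38.p6; the sources used here do not name the build of the array annotation. Protein sequences were not used here. One list of genes is not reported here.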

Additional observations from a re-analysis of the deposited data

How the results depend on the processing

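Of 328 refits of the 4 genes, 304 kept direction and side of the threshold. Without the replicate block, the paired estimates for Ptpmt1 kept their value with a larger error (-0.97, adjusted p = 0.184), and the block changed no call of the 4 genes. Genes called in the fl lines (24) numbered 83 with a random replicate block, 0 with fl arrays alone, 8 with no level filter, 14 with a filter at the 50th percentile, 3 with arrays centred on their median, 61 after quantile normalization, 3907 with array weights, 0 over all probe sets, and 0 to 440 without 1 line. For the difference of the effects (0) they were 1 without the replicate block, with a random block, and without both block and the vehicle array of line 10986, 359 with array weights, and 0 to 20 without 1 line. For fl minus wt with vehicle (3) they were 0 with that treatment alone, with either other filter, after quantile normalization and over all probe sets, 6237 with array weights, and 0 to 15 without 1 line. For fl minus wt with 4-OHT (101) they were 41 with that treatment alone, 66 with arrays centred, 1106 with array weights, 31 over all probe sets, and 0 to 51 without 1 line. Array weights, whose estimation stopped early in the genotype comparisons, gave in fl lines -1.40 for Ptpmt1, 0.036 for Pgs1, -0.48 for Crls1 and 0.30 for Lclat1 (these 2 also past the threshold), -0.066 for Hadhb, -0.030 for Ppm1k, -0.086 for Tomm22, -0.15 for Nudt16 and -0.28 for 3110040N11Rik; -1.25 for Ptpmt1 and 0.0093 for Pgs1 in the difference; -0.32 for Ptpmt1, -0.64 for Crls1 and -0.43 for Lclat1 with vehicle; and -1.09 for Ptpmt1 with 4-OHT. With neither the replicate block nor the 10986 vehicle array, the fl change was 0.008 for Pgs1, -0.25 for Crls1, -0.061 for Nudt16 and -0.17 for 3110040N11Rik. Quantile normalization gave 0.0099 for Lclat1 in wt lines and 0.021 for Pgs1 with 4-OHT, and the 4-OHT arrays alone gave -1.11 for Ptpmt1. Without 1 line, the fl change ran from -1.23 to -0.71 for Ptpmt1, -0.32 to 0.33 for Crls1, -0.0043 to 0.78 for Apool, -0.096 to 0.17 for Nudt16 and -0.20 to 0.23 for 3110040N11Rik. In wt lines it ran from -0.087 to 0.17 for Crls1, -0.12 to 0.10 for Lclat1 and -0.015 to 0.068 for Pgs1, in the difference from -0.37 to 0.28 for Crls1, and with 4-OHT from -0.038 to 0.0085 for Pgs1. The causes were not tested, other than that fewer arrays or more genes were fitted where named.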
